A study of Mus musculus with 16 samples.

Results

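The IGF-binding protein and IGF receptor genes were followed in J1 mouse embryonic stem (ES) cells in which a transcriptional activator was aimed at a family of endogenous retroviruses. They were chosen as a named list of 8 genes, 6 encoding IGF-binding proteins (Igfbp2, Igfbp3, Igfbp4, Igfbp5, Igfbp6 and Igfbp7) and 2 encoding IGF receptors (Igf1r and Igf2r), out of 23420 genes in the count tables. The list was chosen by gene family with log2 fold changes of these libraries in view, among them large decreases of Igfbp4 and Igfbp5. Values of the 8 genes in the 4 ES cell groups are therefore a description, and no p-value is given for them. Of the 8, 7 passed the filter on low counts and were among the 14664 genes tested, and Igfbp6 did not pass it.

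Insulin-like growth factors (IGFs) are secreted peptides that bind the receptor tyrosine kinase IGF1R and promote growth and survival through the PI3K and AKT kinases. In the extracellular space most IGF is held by IGF-binding proteins, which carry it, keep it from the receptor or release it when proteases cut them. IGF2R, the cation-independent mannose 6-phosphate receptor, has no kinase: it takes IGF2 to lysosomes for degradation and sorts lysosomal enzymes. In human pluripotent cells IGF signalling is known to support survival and self-renewal.

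All 8 ES cell libraries came from passage 36 cells of 129S4/SvJae background, carrying dCas9-VPR and a guide RNA for RLTR10B2 with a DsRed reporter, and were labelled day 3. dCas9-VPR is a Cas9 without nuclease activity fused to activation domains, and RLTR10B2 is a family of retroviral long terminal repeats. The 4 groups of 2 libraries were Dox + A-MYB cells (doxycycline at 1 µg/ml and expression of A-MYB, the Mybl1 product, known as a transcription factor in male meiosis), Dox cells (doxycycline alone), A-MYB cells (A-MYB alone) and control cells (neither). All were grown without feeder cells in serum medium with LIF and 2i, the MEK inhibitor PD0325901 and the GSK3 inhibitor CHIR99021. The libraries came from wells of a culture plate, and nothing in the labels says that they were separate cultures, so the spread may be technical. Every group carries the activator, and no group analysed here received doxycycline without it or with another guide, so an action of doxycycline itself and of the activator cannot be told apart. How many ES cell clones were used was not given in the sources used here.

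The libraries held 26995317 to 33771487 counts in genes. The Dox + A-MYB libraries stood apart: genes with at least 1 count numbered 17554 and 17602 there and 16027 to 16512 in the other 6, and reads assigned to no gene made up 8.795 to 9.434% of all reads against 7.281 to 8.335%. Mybl1 averaged 18.3 ± 2.32 CPM in Dox + A-MYB cells, 10.6 ± 0.581 in Dox, 19.9 ± 2.96 in A-MYB and 7.65 ± 1.04 in control cells (SD, n = 2 each), where CPM is a gene's counts per 1e6 of a library size adjusted by TMM, the trimmed mean of M values. All 10 markers of naive ES cells had counts in every group, with a summed level of 4293 to 4565 CPM in Dox + A-MYB, 6786 to 6830 in Dox, 6180 to 6411 in A-MYB and 6479 to 6558 in control libraries. The 10 fibroblast markers summed to 9.0 to 9.02, 12.1 to 14.9, 14.0 to 14.2 and 20.9 to 22.8 CPM in the same groups, with Fap at 0 in all 8 libraries and Dcn at 0 in Dox, A-MYB and control cells. The 6 neuroectoderm markers summed to 58.6 to 58.6, 125 to 128, 166 to 193 and 257 to 263 CPM, the 8 mesoderm markers to 13 to 13.7, 28.1 to 28.3, 23.7 to 24.5 and 28.6 to 29.7 CPM, and the 10 endoderm markers to 17.3 to 20.2, 9.15 to 9.97, 8.65 to 8.88 and 7.1 to 7.93 CPM.

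The sequence around the annotated start of 4 of the genes is shown, because Igfbp2, Igfbp4 and Igfbp5 ran through the 4 groups in one order without overlap and Igf2r, among the 7 tested genes, was the one highest in Dox + A-MYB cells. The window of Igfbp7, which was also below control cells in every treated group, held none of the motifs marked here and is not shown. Each window runs from 250 bases before the start to 50 after it (RefSeq, GRCm38.p6), at chr1:72824230-72824529 (plus strand), chr11:99040994-99041293 (plus), chr1:72874816-72875115 (minus) and chr17:12769657-12769956 (minus). All 8 genes matched the promoter table, and Igfbp2 had 2 windows, of which the upstream one is shown. The start used for Igfbp4, 99041244, lies inside its annotated span, which begins at 99040005. Capitals mark AACGG and AACTG (cores bound by MYB factors), CACGTG (the E-box) and TATAAA, on either strand, motifs picked after the values were seen.
Igfbp2: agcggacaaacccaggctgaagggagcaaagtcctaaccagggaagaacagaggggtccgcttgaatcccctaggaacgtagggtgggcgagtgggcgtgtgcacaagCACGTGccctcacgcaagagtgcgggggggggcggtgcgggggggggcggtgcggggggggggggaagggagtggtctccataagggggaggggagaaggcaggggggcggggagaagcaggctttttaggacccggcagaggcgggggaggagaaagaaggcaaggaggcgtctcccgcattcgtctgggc
Igfbp4: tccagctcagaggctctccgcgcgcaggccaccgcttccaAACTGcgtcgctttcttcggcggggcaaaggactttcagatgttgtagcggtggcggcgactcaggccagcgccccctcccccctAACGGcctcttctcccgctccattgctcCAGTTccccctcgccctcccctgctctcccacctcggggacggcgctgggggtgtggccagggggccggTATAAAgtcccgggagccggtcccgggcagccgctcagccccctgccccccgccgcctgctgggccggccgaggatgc
Igfbp5: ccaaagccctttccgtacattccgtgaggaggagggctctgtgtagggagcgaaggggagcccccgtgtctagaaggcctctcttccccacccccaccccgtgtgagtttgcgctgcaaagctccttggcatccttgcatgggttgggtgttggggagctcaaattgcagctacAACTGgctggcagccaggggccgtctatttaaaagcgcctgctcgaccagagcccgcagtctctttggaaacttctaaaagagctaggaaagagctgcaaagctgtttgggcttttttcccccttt
Igf2r: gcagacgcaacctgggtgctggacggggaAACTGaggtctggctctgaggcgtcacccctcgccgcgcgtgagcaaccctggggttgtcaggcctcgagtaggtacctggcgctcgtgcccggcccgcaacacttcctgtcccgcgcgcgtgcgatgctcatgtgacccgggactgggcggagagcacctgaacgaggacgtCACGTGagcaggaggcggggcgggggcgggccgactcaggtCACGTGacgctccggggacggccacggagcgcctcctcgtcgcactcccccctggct
Igf2r had CACGTG with first bases at -48 and -7 and AACTG at -221, counted from the start at 0. Igfbp2 had CACGTG at -142 and neither MYB core in the window shown, while its other window held AACGG at -143 from its own start. In Igfbp4, AACGG lay at -125, AACTG at -210 and -97, and TATAAA at -28, while Igfbp5 had AACTG at -76. Among the windows not shown, that of Igfbp3, for which no comparison passed, had AACGG at -65. That of Igfbp6, which was not tested, had AACGG at -232, AACTG at 6 and TATAAA at -148. The window of Igf1r held none of the marked motifs. Of 32851 such windows over the genome, 17.4% held AACGG, 44.8% held AACTG, 55.1% held at least one of both, 7.15% held CACGTG and 13.6% held TATAAA. A match is a match of letters only.

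Igfbp2, Igfbp4 and Igfbp5 had one pattern over the groups: lowest in Dox + A-MYB cells, then Dox, then A-MYB, and highest in control cells, with no overlap of libraries at any step. Among all tested genes, libraries did not overlap for 77.1% between Dox + A-MYB and Dox cells and for 66.1% between A-MYB and control cells. The share for Dox against A-MYB cells was not computed, nor was the share of genes with this whole order, so how common it is was not assessed. In Dox + A-MYB cells they stood at 19%, 7.41% and 5.59% of the control mean. In bulk RNA, fewer cells that express a gene and less RNA per cell cannot be told apart.

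Igfbp2 encodes a binding protein abundant in embryonic and neural cells. It stood at 94.3 and 116 CPM in Dox + A-MYB cells, 307 and 305 in Dox, 342 and 356 in A-MYB, and 562 and 544 in control cells. No groups overlapped, and replicates lay furthest apart in Dox + A-MYB cells (SD 15.2 CPM, mean 105). Both treatments together took it to a log2 fold change of -2.40 (SE 0.07) against control cells, Dox without A-MYB to -0.85 (SE 0.07) and A-MYB without Dox to -0.67 (SE 0.07). Within A-MYB cells Dox gave -1.73 (SE 0.07), and within Dox cells A-MYB gave -1.54 (SE 0.07). All of these passed the threshold used for all genes, an adjusted p under 0.05 with edgeR's quasi-likelihood test, and kept that call under every alternative run.

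Igfbp4 encodes a binding protein that mostly inhibits IGF action until the protease PAPP-A cuts it. It stood at 1.05 and 1.81 CPM in Dox + A-MYB cells, 4.3 and 3.71 in Dox, 8.07 and 7.68 in A-MYB, and 18.5 and 20.1 in control cells. Dox alone left 20.7% of the control mean and A-MYB alone 40.8%. The log2 fold change was -3.75 (SE 0.20) for both treatments against control, -2.46 (SE 0.21) for Dox with A-MYB, -2.26 (SE 0.17) for Dox without it, -1.49 (SE 0.22) for A-MYB with Dox and -1.29 (SE 0.16) for A-MYB without it. Each passed, and each call was kept under every alternative run.

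Igfbp5 encodes the most conserved of the binding proteins, found in the extracellular matrix. It was low throughout, at 0.263 and 0.178 CPM in Dox + A-MYB cells (9 and 6 counts), 1.36 and 0.859 in Dox, 2.41 and 2.77 in A-MYB, and 4.81 and 3.07 in control cells. Control libraries differed most between replicates, but neither fell into the range of another group. The log2 fold change was -4.14 (SE 0.43) for both treatments against control, -3.53 (SE 0.44) for Dox with A-MYB, -1.82 (SE 0.34) for Dox without it and -2.32 (SE 0.47) for A-MYB with Dox, and all passed. A-MYB without Dox, at -0.61 (SE 0.32), did not pass.

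The fibroblast, neuroectoderm and mesoderm markers, given with the libraries, had summed levels that were lowest in Dox + A-MYB and highest in control cells as well. One gene made up most of each sum: Pdgfrb averaged 5.73 CPM in Dox + A-MYB and 16.7 in control cells, Tubb3 51.9 and 254 CPM, and Eomes 9.5 and 24.2 CPM. Other markers of the same lists went the other way. Pax6 averaged 3.99 CPM in Dox + A-MYB and 0.413 in control cells (log2 fold change 3.24, SE 0.41, edgeR adjusted p = 1.39e-07), and Col3a1 0.674 and 0.0194 CPM (4.92, SE 1.20, edgeR adjusted p = 0.000967). Hand1, of the mesoderm list, averaged 1.3 and 0.318 CPM in these groups (2.03, SE 0.63, edgeR adjusted p = 0.00674). Dcn had 10 and 6 counts and Lum 7 and 12 in Dox + A-MYB libraries, and both had 0 in control libraries. The summed endoderm markers ran the opposite way, highest in Dox + A-MYB (17.3 to 20.2 CPM) and lowest in control libraries (7.1 to 7.93 CPM). The part of these markers in the levels of Igfbp2, Igfbp4 and Igfbp5 was not tested.

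**Figure D1:**
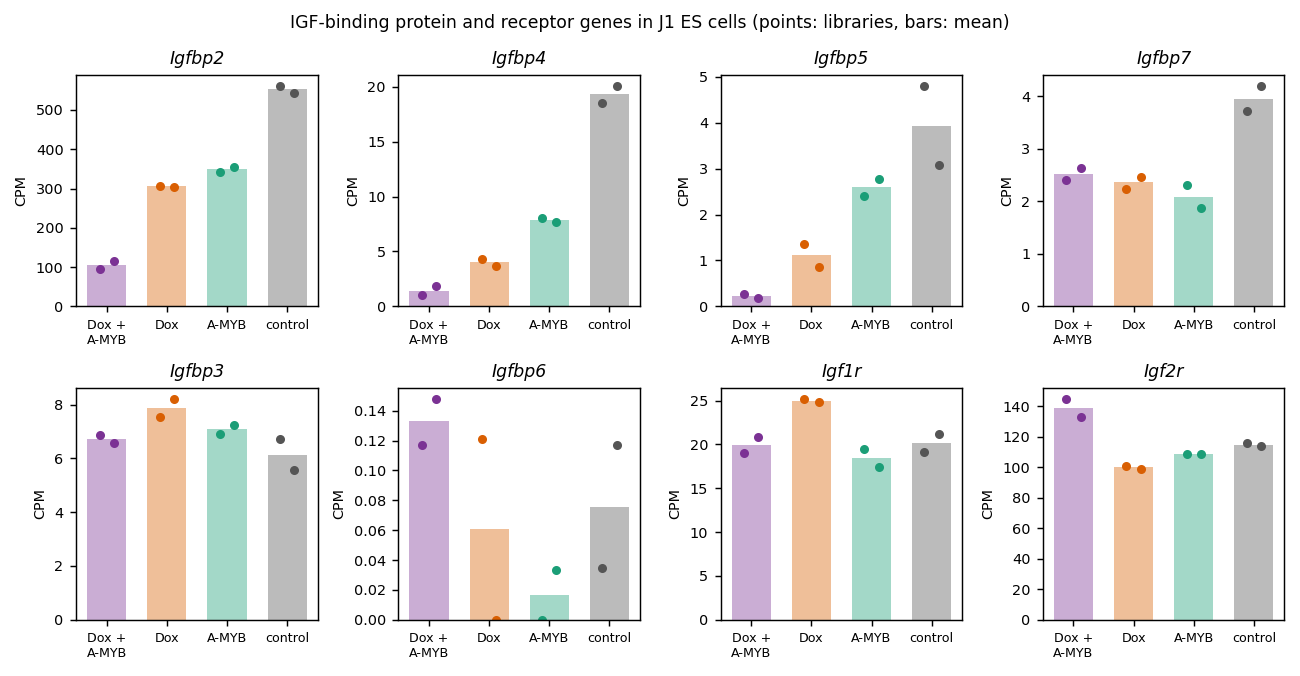
Level of the 8 genes in CPM (vertical axis, a separate linear scale from 0 for each gene) in Dox + A-MYB, Dox, A-MYB and control cells, with points for libraries and bars for the mean of 2. Igfbp2, Igfbp4 and Igfbp5 step up from Dox + A-MYB over Dox and A-MYB to control cells without overlap, and Igf2r is highest in Dox + A-MYB cells.

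Igfbp2 and Igfbp5 are neighbours on chromosome 1, in opposite orientation. Igfbp2 spans 72824480 to 72852474 and Igfbp5 72858065 to 72874865 (GRCm38.p6), with 5590 bases between them and their 3′ ends facing each other. The nearest tested gene on the other side of Igfbp2 was Rpl37a, a ribosomal protein gene 110666 bases away, with a log2 fold change of -0.48 (edgeR adjusted p = 7.71e-07) for both treatments against control. Igfbp4 lies on chromosome 11 (99040005 to 99052655) between Top2a, which encodes DNA topoisomerase II alpha, and Smarce1, a chromatin remodelling subunit gene. Top2a, 15805 bases away, had a log2 fold change of -0.37 (edgeR adjusted p = 5.01e-06) in that comparison, and Smarce1 one of -0.29 (edgeR adjusted p = 0.000575), which was lost with total counts. On the other side of Igfbp5 the nearest tested gene was 6030407O03Rik, 743515 bases away, with -2.41 (edgeR adjusted p = 0.00503), a call lost without Dox + A-MYB replicate 1. Among the 14 tested neighbours outside the 8 genes, 6 rose (33.5% of all tested genes) and 5 fell (30.4%) in that comparison. With total counts 8 rose and 4 fell, as did 6946 and 2796 of all 14664 tested genes.

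Igfbp7, Igfbp3 and Igfbp6 did not share that pattern. Igfbp7 encodes a related protein with low affinity for IGFs. It stood at 2.4 and 2.64 CPM in Dox + A-MYB cells, 2.24 and 2.47 in Dox, 2.3 and 1.87 in A-MYB, and 3.71 and 4.2 in control cells. Dox cells overlapped both other treated groups, Dox + A-MYB cells lay above A-MYB cells, and all 3 treated groups lay below control cells. The log2 fold change was -0.65 (SE 0.26) for both treatments against control, -0.74 (SE 0.26) for Dox without A-MYB and -0.92 (SE 0.27) for A-MYB without Dox, which passed, and 0.27 (SE 0.27) for Dox with A-MYB and 0.10 (SE 0.26) for A-MYB with Dox, which did not. Each of the 3 calls was lost without some library: that of Dox without A-MYB without either control or either Dox library, that of A-MYB without Dox without control replicate 2 or A-MYB replicate 2, and that of both treatments without control replicate 2 or either Dox + A-MYB library. The last was also lost with DESeq2 and, at a log2 fold change of -0.41, with scaling to total counts. The 3′ end of Igfbp7 (chromosome 5, 77349240 to 77408045) overlaps Polr2b, a gene with 8470 to 11264 counts per library, and whether the counting used strand was not given in the sources used here.

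Igfbp3 encodes the main carrier of IGFs in blood. It stood at 6.86 and 6.56 CPM in Dox + A-MYB cells, 7.54 and 8.21 in Dox, 6.9 and 7.25 in A-MYB, and 6.72 and 5.56 in control cells. Dox cells lay above all others, and Dox + A-MYB cells overlapped control cells. No comparison passed, with log2 fold changes of 0.13 (SE 0.17) for both treatments against control, -0.08 (SE 0.16) for Dox with A-MYB and 0.36 (SE 0.17) for Dox without it. Igfbp6, which encodes a binding protein with a preference for IGF2, had 4 and 5 counts in Dox + A-MYB, 4 and 0 in Dox, 0 and 1 in A-MYB, and 1 and 3 in control cells. At this depth no difference was detectable for Igfbp6.

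Igf1r encodes the signalling receptor for IGF1 and IGF2. It stood at 19 and 20.8 CPM in Dox + A-MYB cells, 25.2 and 24.8 in Dox, 19.5 and 17.4 in A-MYB, and 19.1 and 21.2 in control cells. Dox cells lay above the other groups, which overlapped. The log2 fold change was 0.31 (SE 0.10) for Dox without A-MYB and -0.33 (SE 0.10) for A-MYB with Dox, and both passed. It was 0.11 (SE 0.11) for Dox with A-MYB, -0.13 (SE 0.11) for A-MYB without Dox and -0.02 (SE 0.11) for both treatments against control, none of which passed. With total counts Dox with A-MYB passed, and the value for both treatments was 0.21 and did not pass. The call for Dox without A-MYB was lost with DESeq2 and without either control or either Dox library. That for A-MYB with Dox was lost with total counts and without Dox + A-MYB replicate 1.

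Igf2r encodes the receptor that clears IGF2. It stood at 145 and 133 CPM in Dox + A-MYB cells, 101 and 99.0 in Dox, 109 and 109 in A-MYB, and 116 and 114 in control cells. The groups did not overlap, with Dox + A-MYB cells above control, A-MYB and Dox cells in that order. Libraries of 80.6% of all tested genes did not overlap between Dox + A-MYB and control cells, and of 66.1% between A-MYB and control cells. Shares for A-MYB against Dox cells and for the whole order were not computed. The log2 fold change was 0.27 (SE 0.06) for both treatments against control, 0.35 (SE 0.06) for Dox with A-MYB and 0.47 (SE 0.06) for A-MYB with Dox, all of which passed and were kept under every alternative run. It was -0.20 (SE 0.06) for Dox without A-MYB, which passed but was lost with total counts and without control replicate 1 or either Dox library, and -0.08 (SE 0.06) for A-MYB without Dox, which did not pass. Airn, the imprinted antisense RNA, overlaps Igf2r on chromosome 17 and silences its paternal copy in mouse tissues. Airn had 8 and 7 counts in Dox + A-MYB libraries and 0 to 2 per library in the other groups.

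**Figure D2:**
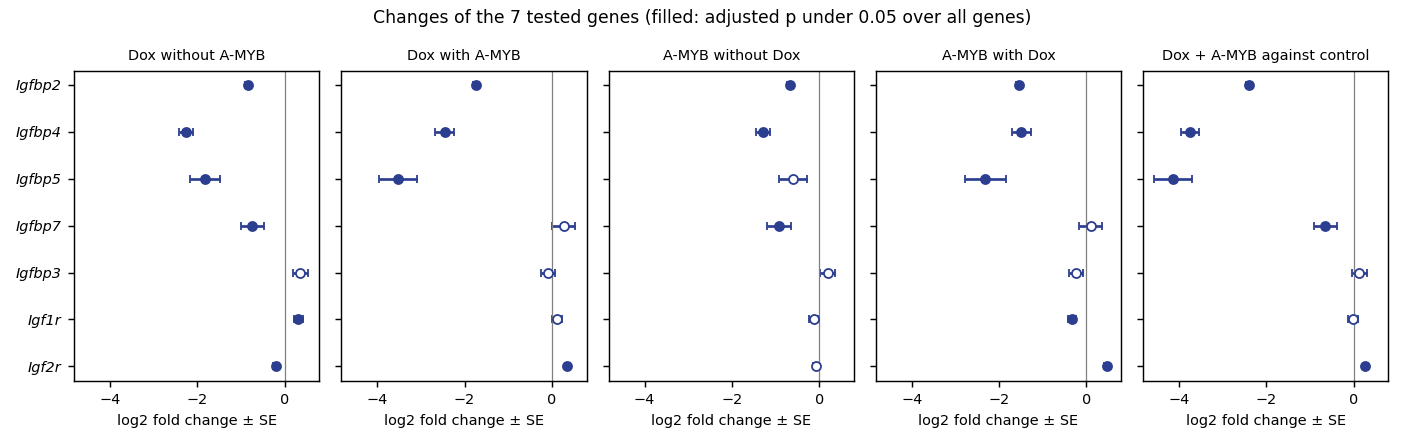
Log2 fold change (horizontal axis) with its SE of the 7 tested genes in 5 comparisons, filled where the adjusted p over all genes was under 0.05 and open where not. Igfbp2, Igfbp4 and Igfbp5 lie left of 0 in all 5 panels, with Igfbp5 open for A-MYB without Dox. Igf2r lies right of 0 in the 3 comparisons of Dox + A-MYB cells with A-MYB, Dox or control cells.

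Read by comparison, with the share of all 14664 tested genes that passed in the same direction beside each count, both treatments against control gave 1 gene higher (33.5% of all) and 4 lower (30.4%) of the 7 tested. Dox with A-MYB gave 1 higher (28.5%) and 3 lower (30.4%), and Dox without A-MYB 1 higher (17.9%) and 5 lower (14.3%). A-MYB with Dox gave 1 higher (26.8%) and 4 lower (28.4%), and A-MYB without Dox 0 higher (19.5%) and 3 lower (15.2%). In either direction, 63.9% of all tested genes passed for both treatments, 58.9% for Dox with A-MYB, 32.2% for Dox without it, 55.2% for A-MYB with Dox and 34.7% for A-MYB without it. Libraries of the groups compared did not overlap for 80.6%, 78.1%, 67.1%, 77.1% and 66.1% of all tested genes in the same 5 comparisons. The genes were chosen with these contrasts in view, and nothing is read from their counts. These comparisons share libraries: control cells serve 3 of the 5, Dox + A-MYB cells 3, and Dox and A-MYB cells 2 each.

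The effect of both treatments was set beside the sum of each alone. Their difference is the interaction term: the change by Dox in A-MYB cells minus its change in cells not given A-MYB. Igfbp4 came close to the sum, at -3.75 for both against -3.56 for the sum on the log2 scale, a difference of -0.20 (SE 0.27) that did not pass. Igfbp2 was lower with both than the sum, at -2.40 against -1.52, a difference of -0.88 (SE 0.10), and Igfbp5 at -4.14 against -2.42, a difference of -1.71 (SE 0.58). Igfbp7 was less reduced with both, at -0.65 against -1.67, a difference of 1.02 (SE 0.38). Igf2r stood at 0.27 with both against -0.28 for the sum, a difference of 0.55 (SE 0.09). Of these interactions 2 passed as higher (16.4% of all tested genes) and 2 as lower (24.5%), against 40.9% of all tested genes in either direction. The Igfbp5 interaction was lost without control replicate 2, Dox replicate 1, A-MYB replicate 2 or Dox + A-MYB replicate 2, and the Igfbp7 interaction without any of the same libraries and with DESeq2. Igfbp3, with a difference of -0.43 (SE 0.23), and Igf1r, with -0.20 (SE 0.15), did not pass.

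**Figure D3:**
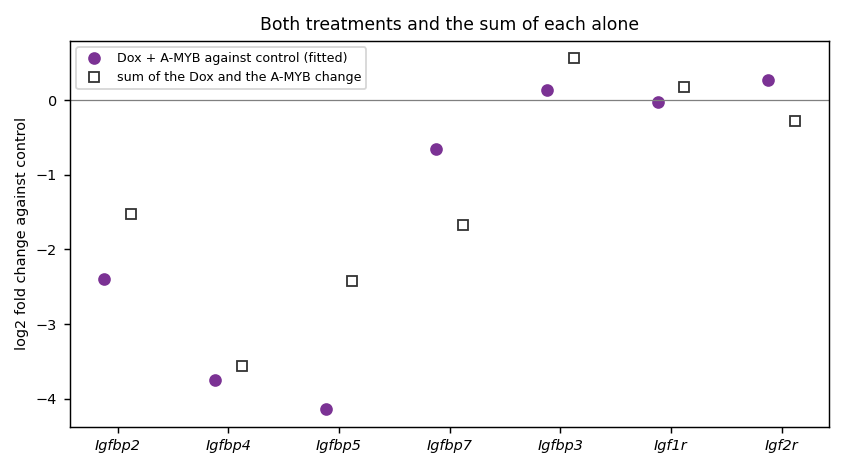
Log2 fold change against control cells (vertical axis) of the 7 tested genes for Dox + A-MYB cells (filled circles, fitted) and for the sum of the changes with Dox alone and A-MYB alone (open squares). The circle lies below the square for Igfbp2 and Igfbp5, near it for Igfbp4 and above it for Igfbp7 and Igf2r.

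The genes whose levels over the 8 libraries were most like each gene were found by the root mean square difference of centred log2 CPM, among 12342 tested genes whose log2 CPM averaged 0 or more. For Igfbp2 they were Ndufa4l2 (0.09), the neurotrophin receptor gene Ngfr (0.094) and Cyp2s1 (0.099). For Igfbp4 they were Lefty1, an antagonist of Nodal (0.171), Adm2 (0.299) and Prmt8 (0.305), and for Igfbp5 the Wnt antagonist gene Sfrp5 (0.306), Nxph4 (0.392) and A2m (0.417). Lefty1 averaged 7.13 CPM in Dox + A-MYB, 18.6 in Dox, 39.9 in A-MYB and 85.3 in control cells. For Igf2r they were Mtbp (0.049), Rab4a (0.053) and Tmem150a (0.057), for Igf1r Brd1 (0.073), Pelo (0.075) and Unc13b (0.077), for Igfbp3 Copg2 (0.066), Ccdc41 (0.072) and Mrps30 (0.072), and for Igfbp7 Tmem205 (0.11), Klk8 (0.132) and Tenc1 (0.143).

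Other genes of the IGF system are described from lists chosen with earlier results known. Of the ligands, Ins1 and Ins2 had 0 counts in all libraries and Igf1 had 0 in A-MYB and control cells. Igf2, the fetal growth factor, averaged 0.691 ± 0.221 CPM in Dox + A-MYB, 0.624 ± 0.625 in Dox, 1.79 ± 0.207 in A-MYB and 1.91 ± 0.233 in control cells (SD, n = 2 each). It fell with Dox in A-MYB cells (log2 fold change -1.37, SE 0.51, edgeR adjusted p = 0.0239), a call lost with total counts and without A-MYB replicate 2 or Dox + A-MYB replicate 2. Its decrease with Dox alone (-1.65, SE 0.52, edgeR adjusted p = 0.0182) was lost without either control library or Dox replicate 1. It rests on Dox libraries with 6 and 31 counts, and was -0.84 without Dox replicate 1 and -3.39 without Dox replicate 2. Insr, the insulin receptor gene, averaged 8.74 ± 1.03 CPM in Dox + A-MYB, 14.1 ± 0.0414 in Dox, 14.0 in A-MYB and 15.0 ± 2.64 in control cells, and was lower with both treatments than in control cells (log2 fold change -0.77, SE 0.14, edgeR adjusted p = 2.56e-05).

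Of 8 genes of the ternary complex, of proteases that cut the binding proteins and of their inhibitors, 5 were tested. With both treatments against control, 0 rose (33.5% of all tested genes) and 3 fell (30.4%), with a median log2 fold change of -0.54 against 0.05 for all genes. With total counts 1 rose and 2 fell, where 6946 and 2796 of all 14664 tested genes did. The genes that fell were Stc1, Stc2 and the protease gene Htra1 (-0.54, SE 0.20, edgeR adjusted p = 0.02), whose call was lost with total counts and without control replicate 1 or Dox + A-MYB replicate 1. The stanniocalcins, inhibitors of PAPP-A and so of the release of IGF, are encoded by Stc1 and Stc2. Pappa, the gene of PAPP-A itself, had 0 to 4 counts per library and Pappa2 0 to 3, and neither was tested. Stc2 averaged 4.54 ± 0.512 CPM in Dox + A-MYB, 15.2 ± 0.0168 in Dox, 18.4 ± 0.733 in A-MYB and 29.8 ± 0.327 in control cells (SD, n = 2 each), with a log2 fold change of -2.71 (SE 0.12, edgeR adjusted p = 6.16e-16) for both treatments against control. Stc1 had 0 counts in Dox + A-MYB cells against 22 in Dox, 51 in A-MYB and 67 in control cells. With a floor of 3 counts over that group, it was 8.02-fold below Dox, 20.2-fold below A-MYB and 27.8-fold below control cells. These ratios leave out the error of the other groups' counts. Igfals, the acid-labile subunit, rose with A-MYB in Dox cells (0.79, SE 0.21, edgeR adjusted p = 0.00249), a call lost without Dox replicate 1.

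Of 14 genes outside the 8 whose proteins carry an IGFBP-type domain, Htra1 again among them, 8 were tested, and Igfbp1 and Esm1 had 0 counts in all libraries. With both treatments against control 3 rose (33.5% of all tested genes) and 1, the same Htra1, fell (30.4%), with a median log2 fold change of 0.69 against 0.05 for all genes. The 3 that rose encode matricellular proteins of the CCN family. Cyr61 averaged 43.3 ± 2.18 CPM in Dox + A-MYB, 16.5 ± 0.0106 in Dox, 20.1 ± 1.96 in A-MYB and 13.7 ± 0.956 in control cells, and Ctgf 62.0 ± 5.03, 21.0 ± 1.76, 35 ± 0.252 and 20.2 ± 0.663 CPM in the same groups (SD, n = 2 each). Wisp1 averaged 3.81 ± 0.687 CPM in Dox + A-MYB and 0.855 ± 0.769 in control cells (log2 fold change 2.18, SE 0.43, edgeR adjusted p = 0.000129). Control libraries stood at 0.312 and 1.4 CPM, and the log2 fold change of Wisp1 was 1.41 without control replicate 1 and 3.56 without control replicate 2, past the threshold in both.

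Of 28 genes that act below the receptors, 5 rose (26.8% of all tested genes) and 14 fell (28.4%) with A-MYB in Dox cells, 5 (28.5%) and 11 (30.4%) with Dox in A-MYB cells, and 9 (33.5%) and 8 (30.4%) with both treatments against control. The single treatments gave 9 higher (17.9%) and 3 lower (14.3%) for Dox and 10 (19.5%) and 3 (15.2%) for A-MYB. Without Dox replicate 1 the Dox counts were 6 and 1, and without control replicate 1 or A-MYB replicate 1 the A-MYB counts were 5 and 3. The balance rests on the scaling. With total counts, 9 rose and 6 fell with A-MYB in Dox cells, where 5804 and 2367 of all 14664 tested genes did. With Dox in A-MYB cells 10 and 6 did, against 6204 and 2606 of all. For both treatments against control the numbers were 14 and 4, against 6946 and 2796 of all. Akt1, a kinase gene of the pathway, averaged 40.2 ± 4.21 CPM in Dox + A-MYB and 70.0 ± 1.29 in control cells (log2 fold change -0.80, SE 0.08, edgeR adjusted p = 4.87e-09). Tsc1, which restrains mTORC1 below AKT, averaged 109 ± 2.26 and 59.9 ± 1.71 CPM in these groups (0.86, SE 0.07, edgeR adjusted p = 4.87e-11), and the adaptor gene Irs2 17.9 ± 0.446 and 11 ± 1.47 CPM (0.70, SE 0.13, edgeR adjusted p = 2.99e-05).

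Of 7 genes of Igf2r's mannose 6-phosphate route, 3 rose (33.5% of all tested genes) and 2 fell (30.4%) with both treatments against control. With total counts 5 rose and 1 fell, as did 6946 and 2796 of all 14664 tested genes. Gnptg, a subunit gene of the enzyme that makes the tag, averaged 38.3 ± 6.6 CPM in Dox + A-MYB and 11.2 ± 1.63 in control cells (log2 fold change 1.77, SE 0.12, edgeR adjusted p = 5.89e-12), and Nagpa, whose enzyme uncovers the tag, 38.6 ± 2.61 and 20.8 ± 0.457 CPM (0.89, SE 0.10, edgeR adjusted p = 9.95e-09). Gnptab, which encodes the catalytic subunit, averaged 33.3 ± 3.26 and 56.8 ± 2.57 CPM (-0.77, SE 0.08, edgeR adjusted p = 1.56e-08). M6pr, the gene of the smaller mannose 6-phosphate receptor, averaged 235 ± 2.04 and 254 ± 2.74 CPM and did not pass (-0.11, SE 0.06, edgeR adjusted p = 0.088). With total counts its value was 0.13 instead, past the threshold.

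Among imprinted genes of the axis, the non-coding H19, which lies beside Igf2, averaged 20.0 ± 1.53 CPM in Dox + A-MYB, 59.1 ± 3.97 in Dox, 7.5 ± 0.685 in A-MYB and 8.72 ± 0.527 in control cells (SD, n = 2 each). It rose with Dox in A-MYB cells by a log2 of 1.41 (SE 0.11, edgeR adjusted p = 1.3e-10) and without A-MYB by 2.76 (SE 0.11, edgeR adjusted p = 9.1e-16). Grb10, an adaptor gene that inhibits receptor signalling, averaged 41.6 ± 0.519, 20.6 ± 0.496, 27.8 ± 0.303 and 31.3 ± 1.07 CPM in these groups, and was lower with Dox alone (log2 fold change -0.60, SE 0.09) and higher with both treatments (0.41, SE 0.09) than in control cells. All 3 Igf2bp genes, which encode RNA-binding proteins that bind Igf2 mRNA, fell with both treatments against control, as did 30.4% of all tested genes. With total counts 1 of them, Igf2bp2, fell, as did 2796 of all 14664 tested genes. Igf2bp2 averaged 114 ± 5.33 CPM in Dox + A-MYB and 248 ± 7.32 in control cells (log2 fold change -1.12, SE 0.06, edgeR adjusted p = 3.35e-14).

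**Figure D4:**
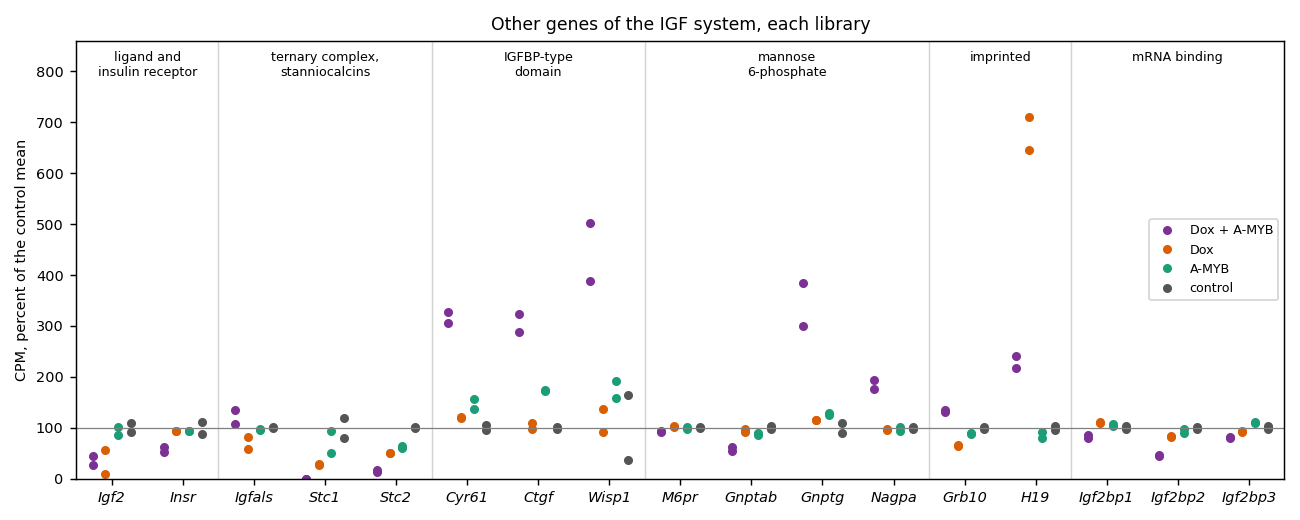
Level of other IGF system genes in each library (points) as a percent of the control mean (vertical axis, linear), by group of genes, with Dox + A-MYB, Dox, A-MYB and control cells in that order within each gene. Igfals, Cyr61, Ctgf, Wisp1, Gnptg, Nagpa and Grb10 are highest in Dox + A-MYB cells, where Stc1 had 0 counts, and H19 is highest in Dox cells.

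Histone H3 acetylated at lysine 27 (H3K27ac), a mark of active promoters and enhancers, was measured in pachytene spermatocytes from C57BL/6J males (8 to 12 weeks old). There were 2 libraries from A-myb mutant mice homozygous for repro9 and 2 from wild-type mice. None of the 8 genes had a peak within 1000 bases of an annotated start in any library, where 0.633% of 27025 genes had one in both mutant libraries and 1.21% in both wild-type libraries. The lists hold few peaks at starts of any gene: 0.549 and 0.635% of mutant and 1.67 and 0.966% of wild-type summits lay within 1000 bases of a start, against 1.52 to 1.58% around points 20000 bases away, so the absence of a peak says little about these genes. The nearest peaks to a start were those of Igfbp7, at 1974 bases in mutant replicate 2 and at 1260 and 1176 bases in wild-type replicates 1 and 2, with the authors' fold enrichment of 2.81, 4.62 and 3.99.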

How the data were processed

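RNA-seq of 8 J1 ES cell libraries (4 groups of 2) and H3K27ac ChIP-seq peak lists of 4 pachytene spermatocyte libraries were used; 4 input libraries were not analysed here. For ES cells, the authors deposited raw counts per gene symbol, not normalized; 5 special lines, 17.21 to 19.48% of all reads, were left out. Tools named in the submitters' processing notes are HISAT2 2.1.0, HTSeq, Bowtie2 2.3.3.1, MACS 1.4.2 and bcl2fastq 2.20.0, with the build mm10, and RNA libraries were made with a stranded mRNA kit per the labels' protocols. The authors' peak lists give tag counts, a score and a fold enrichment (ratio) per peak, per the file headers. Treatment and control libraries of each peak call were not given in the sources used here.

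Counts were scaled by TMM and fitted with edgeR 4.0.16 (glmQLFit, robust, limma 3.58.1, R 4.3.3), 4 group coefficients with 4 residual degrees of freedom, after filterByExpr left 14664 genes. Two-sided tests used glmQLFTest, p-values were Benjamini-Hochberg adjusted over all of them, and an adjusted p under 0.05 passed. The SE was taken as the size of the log2 fold change over the root of F. Replicates differed by more than sampling noise (chi-square per degree of freedom 5.59 to 14.4). Floors cover only the counting error of the group at 0. Likeness used log2(CPM + 0.05). Positions are those of RefSeq GRCm38.p6, which matched 23280 of 23420 gene symbols, and levels are not compared between genes, since no transcript lengths were used.

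The genes and lists were chosen with earlier results of these data known. Genes are named by rule: all 8, list genes with a defining role or up to 4 with the smallest p in a contrast, the nearest tested neighbours, and the 3 most alike genes of each. The alternatives were DESeq2 1.42.0, DESeq2's size factors, total counts, other filters on low counts, the replicate number as a block, only the groups compared, each library left out and, for peaks, a wider window, a minimum score and a minimum cover. Leaving out both Dox + A-MYB libraries, the motifs and the points 20000 bases from starts were added after seeing the data.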

Additional observations from a re-analysis of the deposited data

Results flagged for a closer look

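The effect of Dox differed between cells given and not given A-MYB, by the interaction term of the fit over all genes, for 4 of the 7 tested genes. They were Igfbp2 (-0.88 on the log2 scale), Igfbp5 (-1.71), Igfbp7 (1.02) and Igf2r (0.55). The genes were chosen with results of these libraries known, and 40.9% of all tested genes passed the same test. The differences of Igfbp2 and Igf2r passed under all 14 alternatives run. Those of Igfbp5 and Igfbp7 rest on few counts and passed under 10 and 9 of the 14.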

How the results depend on the processing

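Igfbp2 and Igfbp4 kept direction and call in all comparisons that passed, under every alternative run, as did Igfbp5 outside the interaction and Igf2r in the comparisons of Dox + A-MYB cells. Leaving out each library in turn, the number of the 8 genes that passed ran from 3 to 6 for Dox without A-MYB (3 without control replicate 1, Dox replicate 1 or Dox replicate 2), 2 to 3 for A-MYB without Dox and 2 to 4 for the interaction. Over all genes, those that passed ran from 2669 to 5221 for Dox without A-MYB and from 3200 to 5676 for A-MYB without Dox. Total counts, without TMM, moved the median of all genes to 0.281 for both treatments against control, 0.221 for Dox with A-MYB and 0.196 for A-MYB with Dox, against 0.046, 0.01 and 0.005 with TMM, and the split of all genes with both treatments to 6946 higher and 2796 lower, against 4906 and 4462. With Dox in A-MYB cells the split became 6204 and 2606 against 4174 and 4463, with A-MYB in Dox cells 5804 and 2367 against 3935 and 4161, with Dox alone 3238 and 1731 against 2626 and 2091, and for the interaction 3746 and 2291 against 2410 and 3586. Under total counts 44 of 450 values, over 75 genes and 6 comparisons, changed sign, of which 35 passed with neither scaling. The other 9 passed with at least one of the scalings: Gab1 (0.01), Rptor (0.20) and Gga2 (0.08) for Dox with A-MYB, M6pr (0.04), Gga2 (0.15) and Rpl37a (0.03) for A-MYB with Dox, and Gsk3b (0.21), M6pr (0.13) and Gga2 (0.03) for both treatments against control. A promoter window of 5000 bases gave 1 gene with a wild-type peak in both libraries, Igfbp7, against 0.

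Deviations of same-numbered libraries correlated weakly (r of -0.09 to 0.186 over 12366 genes), which does not settle whether the numbers pair them. With the replicate number as a block, 4958 genes passed for Dox without A-MYB and 9487 for both treatments against control, against 4717 and 9368, and no call of the 8 genes changed. Depth limits Igfbp6, with at most 5 counts per library, and Igfbp5 in Dox + A-MYB cells, with 9 and 6.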
